A study of Mus musculus with 11 samples.

Results

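The beta-defensin family was taken as every gene of the deposited expression table whose symbol starts with Defb and a digit, which gave 42 of 37583 genes. Of these 42 members, 35 had a read in at least 1 of 11 libraries of sorted epididymal mononuclear phagocytes. Their level differed between the 3 regions of the organ that were compared. Defb20, Defb48, Defb25 and Defb42 gave most of the family's reads in the initial segments. The caput/corpus held reads of more members and a lower sum over the family. Of 24 members tested between these 2 regions, 17 had the higher fitted level in caput/corpus and 7 in the initial segments. With edgeR, 7 and 3 of them were called at an adjusted p under 0.05, against 2.98% and 0.794% of all genes tested. A member can pass the filter on low counts through the region where it is high, so these 24 do not speak for all 42. The cauda held few reads, led by Defb28.

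Beta-defensins are small secreted cationic peptides, folded around conserved cysteines that form disulfide bonds, which act against microbes and also act on cells of the host. In the epididymis many members are made by the epithelium that lines the duct, each in its own stretch of the duct, and several coat sperm as they pass, where they have been linked to motility, capacitation and protection from immune attack. Mononuclear phagocytes lie at the base of this epithelium and send projections between its cells.

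EGFP+ cells were taken from mice of the genotype CX3CR1 EGFP +/-, at an age of 12 weeks, and their RNA was sequenced. EGFP is expressed under the control of the gene for the fractalkine receptor CX3CR1. All 3 groups share this genotype and age. The groups were the initial segments (IS, 4 libraries), the caput/corpus (3 libraries) and the cauda (4 libraries), each library from cells that were sorted by flow cytometry in a repeated sort from 4 epididymides. The sort takes cells by the activity of 1 gene, the epididymides were pooled, and the labels do not state which animals went into which library, so p-values measure the spread between these samples, which may be technical. The series title puts the question of how gene expression of these cells goes with their place in the organ. Sample titles carry 1 of 2 names, Maj3 (5 libraries) or Maj4 (6 libraries), which the labels do not explain, and all 3 regions have libraries of both.

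The libraries held 16873180 to 31737132 reads on genes. All 18 genes of a mononuclear phagocyte list (Cx3cr1, Csf1r, Adgre1 and others) had reads in every library, and their summed level was 22524 to 36238 CPM, where CPM is a gene's read count scaled by the effective library size, the usual CPM unit. The count file and the named column of the expression table held different reads for 3 libraries: replicate 2 of IS and replicate 1 of both caput/corpus and cauda. The file under caput/corpus replicate 1 equalled the named column of IS replicate 2 for every gene. Likewise, the file under cauda replicate 1 equalled the named column of caput/corpus replicate 1. The file under IS replicate 2 equalled no column, and the named column of cauda replicate 1 equalled no count file. Values here follow the named columns, and each comparison is also given without these 3 libraries. All 3 carry the name Maj3, so values within Maj3 rest in part on them. Without them Maj3 has no caput/corpus library, so title name and source conflict cannot be told apart. With the count files taken under the samples they are filed for, 0 members were called in any of the 3 comparisons below with edgeR (at an unadjusted p under 0.05, 0 of 25 members for IS against caput/corpus, 4 for IS against cauda and 5 for cauda against caput/corpus). Over all 15198 genes tested that way 0, 4 and 0 were called, and 1166, 3098 and 992 had an unadjusted p under 0.05. As filed, the family's mean summed level was 261 CPM in caput/corpus and 59.3 in cauda in place of 148 and 7.19. In these means the file under caput/corpus replicate 1 stood at 558 CPM and that under cauda replicate 1 at 214. Cauda replicate 1 stood apart, in which 13434 genes had reads, while each of the other 10 libraries had reads of 17053 to 18837 genes.

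The promoters of 28 of the 42 members were found in a RefSeq table for build GRCm38.p6, in 29 windows of 250 bases that end at the base before a start site (Defb21 has a pair of them). The sequences below are those of Defb20 and Defb48, with the highest mean RPKM in IS, of Defb15 and Defb23, which had 197 and 301 reads in caput/corpus and 0 in cauda, and of Defb28 and Defb43, with the highest mean RPKM in cauda. All are read 5′ to 3′ on the gene's own strand. Capitals mark TATAAA, the TATA box (searched on the gene's strand), AGAACA, a half-site of the glucocorticoid receptor (searched on both strands, so that it can also appear as TGTTCT), and AGGAAG, a core motif of PEA3-type ETS factors (both strands, also as CTTCCT).
Defb20, chr2:152476813-152477062, plus strand: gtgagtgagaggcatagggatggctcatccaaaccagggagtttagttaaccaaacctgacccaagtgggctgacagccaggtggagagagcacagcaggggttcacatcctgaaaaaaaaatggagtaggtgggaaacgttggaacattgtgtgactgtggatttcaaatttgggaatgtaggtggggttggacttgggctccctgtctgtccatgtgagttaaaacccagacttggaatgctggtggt
Defb48, chr14:62984511-62984760, minus strand: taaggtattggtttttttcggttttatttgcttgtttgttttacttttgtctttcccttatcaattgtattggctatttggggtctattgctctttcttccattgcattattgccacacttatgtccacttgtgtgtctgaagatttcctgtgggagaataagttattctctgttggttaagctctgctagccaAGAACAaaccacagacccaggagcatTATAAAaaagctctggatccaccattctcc
Defb15, chr8:21932711-21932960, minus strand: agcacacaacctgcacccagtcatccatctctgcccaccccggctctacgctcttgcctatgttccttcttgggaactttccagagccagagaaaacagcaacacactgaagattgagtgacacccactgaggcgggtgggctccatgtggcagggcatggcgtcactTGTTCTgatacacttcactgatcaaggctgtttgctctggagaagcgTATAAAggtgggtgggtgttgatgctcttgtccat
Defb23, chr2:152464621-152464870, minus strand: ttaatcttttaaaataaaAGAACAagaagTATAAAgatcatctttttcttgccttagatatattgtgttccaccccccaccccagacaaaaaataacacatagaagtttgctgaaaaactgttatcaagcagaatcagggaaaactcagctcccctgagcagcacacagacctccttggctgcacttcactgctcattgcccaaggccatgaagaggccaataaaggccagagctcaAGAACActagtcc
Defb28, chr2:152518005-152518254, plus strand: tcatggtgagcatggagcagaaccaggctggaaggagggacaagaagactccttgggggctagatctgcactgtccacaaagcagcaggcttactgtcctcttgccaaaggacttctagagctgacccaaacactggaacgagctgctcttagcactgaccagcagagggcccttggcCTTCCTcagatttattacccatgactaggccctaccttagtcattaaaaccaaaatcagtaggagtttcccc
Defb43, chr14:63011521-63011770, plus strand: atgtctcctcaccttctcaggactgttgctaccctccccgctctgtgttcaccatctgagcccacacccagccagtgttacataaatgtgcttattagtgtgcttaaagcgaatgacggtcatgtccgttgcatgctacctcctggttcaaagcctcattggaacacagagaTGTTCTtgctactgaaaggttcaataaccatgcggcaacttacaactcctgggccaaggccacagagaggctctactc
The window of Defb20 held none of the 3 motifs. That of Defb48 held an AGAACA 56 bases and a TATAAA 30 bases before the start. Defb15 had the AGAACA motif 82 bases and TATAAA 35 bases before its start, and Defb23 had AGAACA at 232 and 13 bases and TATAAA at 221 bases. Defb28 held an AGGAAG at 72 bases and Defb43 an AGAACA at 78 bases. Distances run from the first base of the match, on the gene's strand, to the start.

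Over the 29 windows of the family, 14 (48.3%) held AGAACA on either strand, against 16.1% of the 32851 windows in the table. AGGAAG was found in 9 windows (31.0%), against 29.5% of all windows. TATAAA was found in 3 windows (10.3%), against 7.59%. Matches of different motifs can share at most 2 letters at their ends. Paralogs can share promoter sequence by descent, so the windows are not independent of each other. A match describes the letters only. No binding was measured here.

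Reads of the family were found in every library. In the IS libraries, replicates 1 to 4, 21, 23, 20 and 22 members had a read, in caput/corpus 31, 27 and 28, and in cauda 6, 15, 15 and 12. Caput/corpus libraries thus held the most members and cauda libraries the fewest, with no overlap between the 3 groups. By region, 29 members had reads in IS (16 of them in every library), 32 in caput/corpus (26 in every library) and 19 in cauda (4 in every library, namely Defb20, Defb28, Defb40 and Defb43). Reads in all 3 regions were found for 15 members, in IS and caput/corpus but not cauda for 11, in caput/corpus and cauda but not IS for 4 (Defb9, Defb11, Defb22 and Defb26), in IS alone for 3 and in caput/corpus alone for 2.

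Members with no read in any library were Defb4, Defb5, Defb7, Defb8, Defb34, Defb46 and Defb50. A count of 0 allows up to 3 reads, or 0.103 to 0.173 CPM, depending on the library. Defb4 is known as an inducible member of barrier epithelia, and 6 of these 7 genes lie in 1 group on chromosome 8, where paralogs are close in sequence. Depending on the library, between 12.5% and 35.8% of the reads in the count files did not align uniquely and were not counted, so 0 reads of a gene with close paralogs is uncertain. Reads were counted without regard to strand, as the count files are named, so reads of a gene and of one antisense to it cannot be told apart.

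A further 11 members had reads but too few for the test (edgeR's filter on low counts). Defb36 had 11, 15, 13 and 5 reads in the IS libraries, 2, 0 and 1 in caput/corpus and none in cauda. Defb26 had 41, 13 and 0 reads in caput/corpus, 2 in cauda replicate 3 and none elsewhere. Defb36 was thus seen mainly in IS and Defb26 mainly in caput/corpus. Defb19 had 9 reads in IS, 13 in caput/corpus and 0 in cauda, and Defb9 had 12 in caput/corpus and 13 in cauda and 0 in IS. Defb10 had 10 reads, all in caput/corpus replicate 1. The other 6 had 1 to 6 reads over all libraries. They were Defb3 and Defb14, inducible antimicrobial members of skin and airway epithelia, Defb6, Defb13, Defb35 and the pseudogene Defb44-ps.

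The summed level of the family was highest in IS and lowest in cauda. The IS libraries held 404, 564, 520 and 325 CPM of the 42 members together (mean 453 ± 109, SD, n = 4), in the order of the replicates. In caput/corpus the sums were 216, 107 and 120 CPM (148 ± 59.4, n = 3). The cauda libraries held 5.30, 8.56, 10.2 and 4.72 CPM (7.19 ± 2.60, n = 4). The ranges of the 3 groups did not overlap. In bulk libraries, fewer cells of a type that carries a transcript and less of it per cell cannot be told apart. Without Defb20, Defb25, Defb42 and Defb48, which were picked after their values were seen, caput/corpus was highest, with 65.3 to 101 CPM against 18.8 to 54.3 in IS and 4.46 to 9.58 in cauda.

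The summed level of secreted products of the epididymal epithelium was also highest in IS and lowest in cauda. A list of 42 secreted epithelial products (lipocalins, cystatins, Gpx5, Rnase10 and others) summed to 2246 to 4909 CPM in IS, 1166 to 1653 in caput/corpus and 556 to 701 in cauda. Of these 42 genes, 39 had a read in IS, 41 in caput/corpus and 33 in cauda, and 30, 34 and 10 had reads in every library of the region. In cauda 9 were at 0 (Cst13, Crisp4, Spink12, Spink13, Wfdc15a, Rnase11, Rnase13, Sva and Pate4). Single genes of the list went both ways, with 36 tested by edgeR at an adjusted p under 0.05. Against caput/corpus, 14 were higher in IS and 5 lower (0.794% and 2.98% of all genes tested). Against cauda, 23 were higher in IS and 2 lower (7.4% and 9.06% of all genes tested). Most of the cauda sum was Npc2, a sterol carrier that phagocytes also use, at 488 to 673 CPM. Without Npc2, left out after its values were seen, the list summed to 1848 to 4308 CPM in IS, 601 to 996 in caput/corpus and 28.1 to 67.8 in cauda.

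The family came to 13.1% to 18.4% of that sum in the IS libraries, 16.8% to 21.7% in caput/corpus and 8.84% to 18.9% in cauda, and these ranges overlapped. With Npc2 included it came to 11.0% to 15.8% in IS, 8.99% to 13.1% in caput/corpus and 0.757% to 1.83% in cauda, which lay below both other regions. Structural epithelial genes (keratins, claudins, Epcam, Cdh1, 19 in all) summed to 95.5 to 499 CPM in IS, 88.7 to 274 in caput/corpus and 29.0 to 40.4 in cauda. The high IS value was that of replicate 2, and all 19 had a read in at least 1 cauda library. In cauda replicate 1, Cdh1, Krt8, Krt18, Krt19 and Krt5 were at 0 and Krt7 alone gave 36.9 CPM. The part of epithelial RNA in the family's values was not tested.

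**Figure D1:**
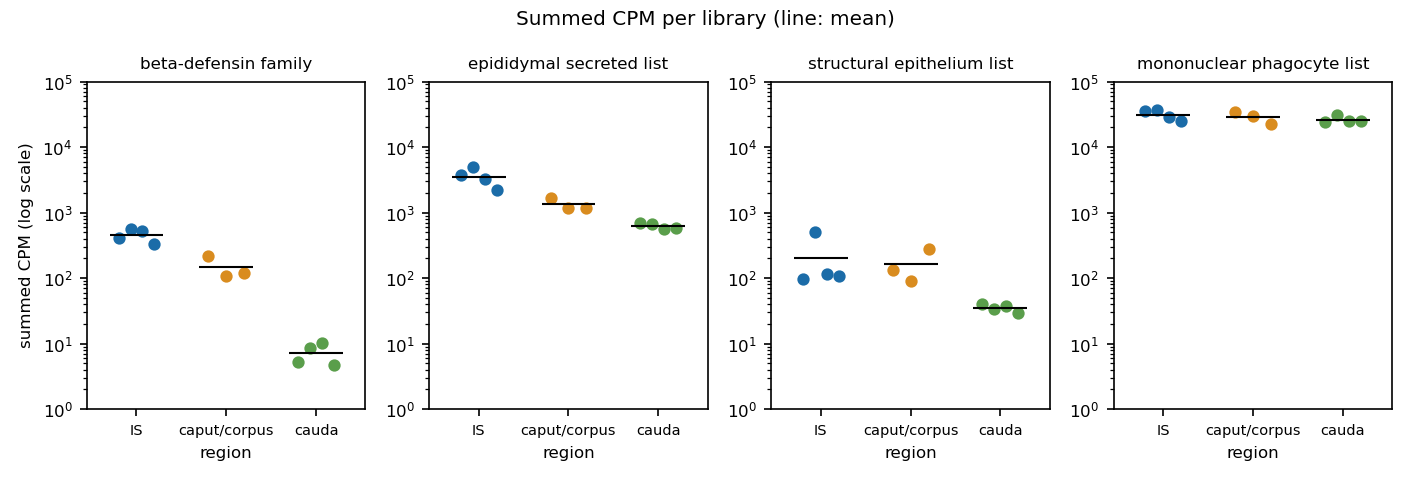
Summed CPM (log axis) of the beta-defensin family, of secreted and structural epithelial gene lists and of a mononuclear phagocyte list, by region. Each point is 1 library and each line the mean. The family lies at 325 to 564 CPM in IS and at 4.72 to 10.2 in cauda, the secreted list (Npc2 included) at 2246 to 4909 and 556 to 701, and the phagocyte list between 22524 and 36238 CPM in all libraries.

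Per unit of length (RPKM, reads per kilobase of gene and on the CPM scale of library size), Defb20 was the most abundant member in IS, at 324 ± 98.8 RPKM (SD, n = 4). Defb48 followed at 223 ± 46.9 and Defb25 at 173 ± 46.4, and the ranges of these neighbours overlapped (214 to 454, 182 to 290 and 135 to 240.1 RPKM). Next came Defb47 at 61.6 ± 31.9 and Defb42 at 18.8 ± 4.89 RPKM, below the former and not overlapping with each other. In caput/corpus the order was Defb20 at 66.8 ± 54.9 (n = 3), Defb47 at 44.8 ± 42.7, Defb28 at 15.9 ± 2.99, Defb25 at 13.6 ± 8.33 and Defb22 at 13.2 ± 10.3 RPKM, each overlapping with the next. In cauda the order was Defb28 at 7.05 ± 4.02 (n = 4), Defb43 at 2.52 ± 1.53, Defb2 at 2.50 ± 1.83, Defb40 at 2.23 ± 2.26 and Defb11 at 1.32 ± 1.48 RPKM, and again neighbours overlapped.

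**Figure D2:**
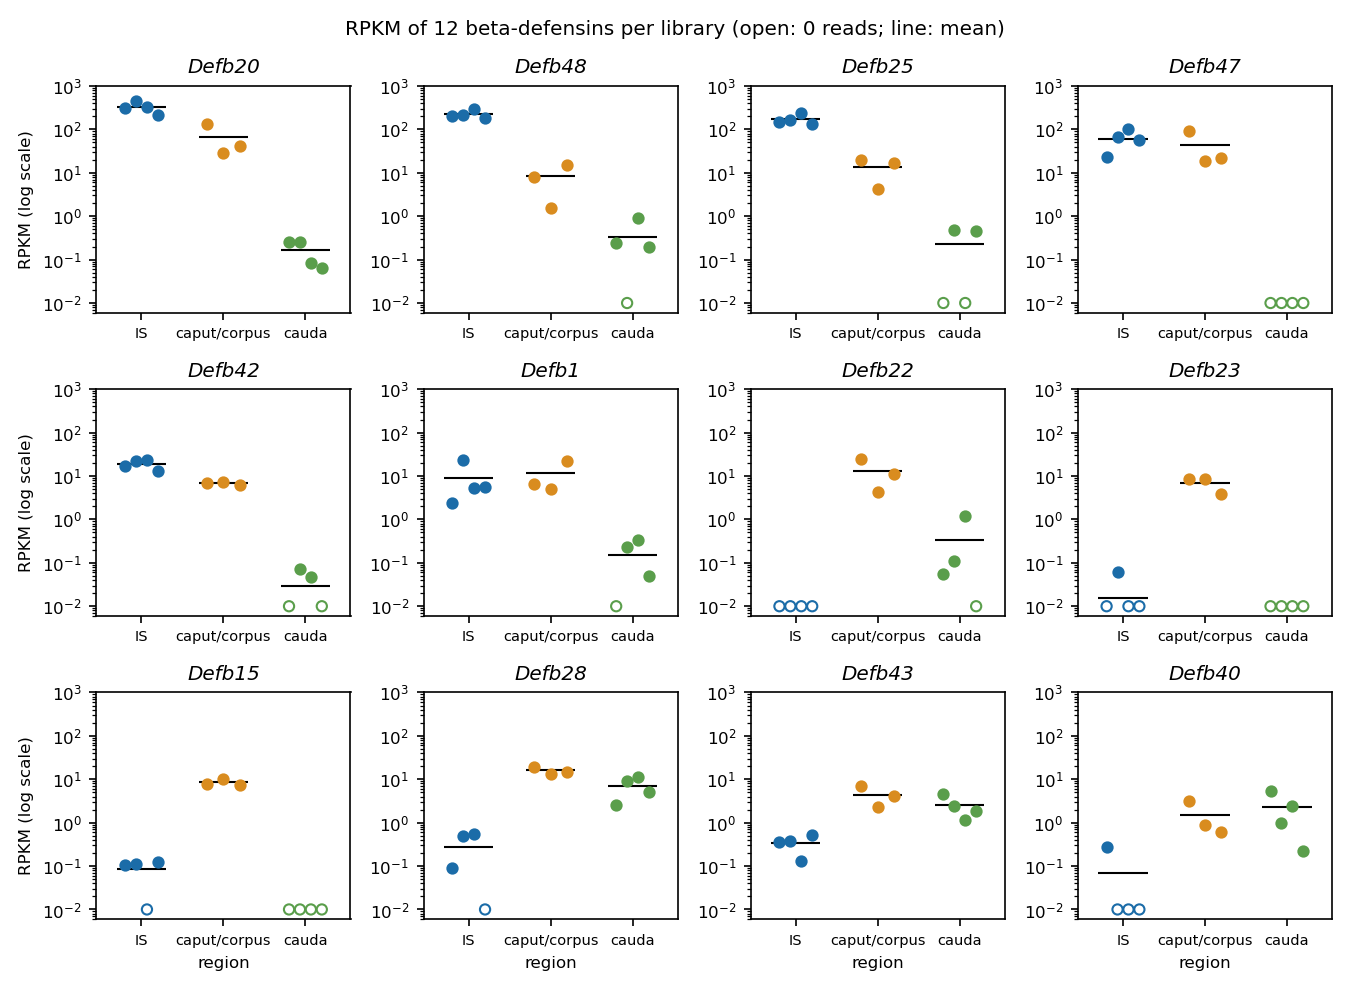
RPKM (log axis) of 12 beta-defensins by region. Each filled point is 1 library, open points at the foot of the axis mark libraries with 0 reads, and lines are means. Defb20, Defb48 and Defb25 are highest in IS and lowest in cauda, Defb15, Defb22 and Defb23 are highest in caput/corpus, and Defb28 and Defb43 are higher in caput/corpus and cauda than in IS.

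The make-up of the family's reads differed by region. Defb20 gave 43.1% (95% exact binomial interval 42.1 to 44.1) to 55.3% (54.5 to 56.1) of family reads in the IS libraries, and Defb48 gave 16.9% (16.3 to 17.5) to 24.8% (23.8 to 25.8). In caput/corpus the share of Defb20 ranged from 18.4% (16.9 to 20.1) in replicate 2 to 41.3% (40.0 to 42.6) in replicate 1. Defb30 was the first member in caput/corpus replicate 2, with 20.6% (18.9 to 22.3), and Defb1 held 16.4% in replicate 3. By reads, the 3 caput/corpus libraries thus differed among themselves in which member followed Defb20 or led. In replicate 2 the intervals of Defb30 and Defb20 overlapped. As shares of the family's RPKM, Defb20 led in all 3 caput/corpus libraries, at 31.3%, 17.6% and 20.0%. Defb30, a longer gene, held 8.04% of it in replicate 2. Defb28 held 19.2% (13.3 to 26.4) of the 151 family reads in cauda replicate 1 and 41.6% to 44.9% of the 250, 176 and 108 in the other 3. In cauda replicate 1 Defb40 (39.1%, 31.2 to 47.3) and Defb43 (35.8%, 28.1 to 44.0) came first. Intervals cover counting error only, since reads carry no molecular identifiers.

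**Figure D3:**
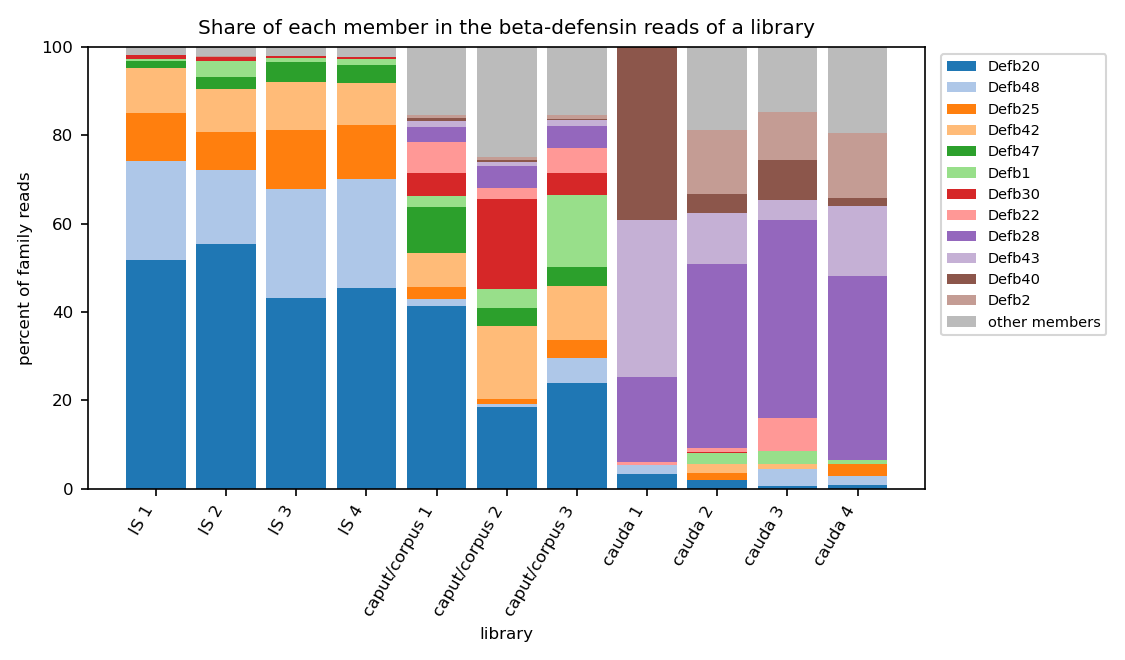
Share of each member in the beta-defensin reads of a library, in percent; the bars are the 11 libraries and members outside the 12 named ones are pooled in grey. Defb20 takes 43.1% to 55.3% in IS, and Defb28 takes 41.6% to 44.9% in cauda replicates 2 to 4.

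The 3 comparisons between regions were fitted together on 15116 genes, among which 24 members passed the filter on low counts. A member can pass through the region where it is high, so counts over these 24 describe them and do not speak for the 42. The 3 comparisons share libraries, so their results are not independent of each other. Log2 fold changes (log2, with SE) and adjusted p are those of edgeR's quasi-likelihood test. Folds given as "at least" are lower bounds for a group with 0 reads, set against 3 reads over the group, and where a group had 1 to 3 reads the fold is that between the reads pooled over each group, with an exact 95% counting interval.

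**Figure D4:**
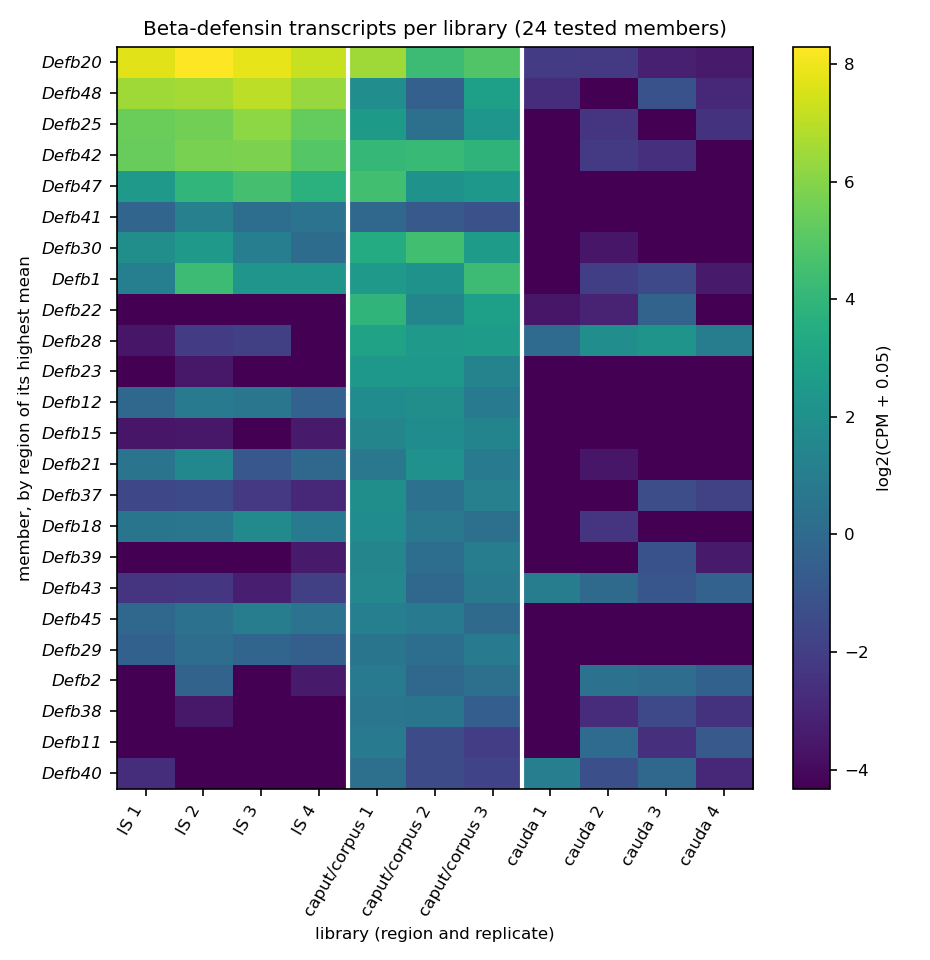
Level of the 24 tested beta-defensins in each library, as log2(CPM + 0.05), with libraries in columns and members ordered by the region of their highest mean. The upper rows are bright in IS and dark in cauda, the rows from Defb30 to Defb11 have their highest mean in caput/corpus, and Defb28, Defb43 and Defb40 keep signal in cauda.

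Between IS and caput/corpus, 10 of the 24 tested members were called at an adjusted p under 0.05, with 3 that were higher in IS and 7 in caput/corpus. Over all genes tested 3.78% were called (0.794% for IS, 2.98% for caput/corpus). The CPM of the 2 groups did not overlap for 18 of the 24, against 14.3% of all genes. The median log2 fold change (IS minus caput/corpus) was -1.92 over the tested members, also with members at 0 in a group set to their bound, and 0.02 over all genes.

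Members higher in IS were Defb20, Defb48 and Defb25, the 3 members with the highest mean RPKM there. Defb20 stood at 209, 312, 224 and 148 CPM in IS replicates 1 to 4 and at 89.3, 19.8 and 28.7 in caput/corpus replicates 1 to 3. Its groups did not overlap, although caput/corpus replicate 1 lay above the other 2 of its group, and its log2 fold change was 2.34 ± 0.31 (adjusted p = 0.0040). Defb48 stood at 90.8, 95.2, 129 and 80.7 CPM in IS and at 3.55, 0.674 and 6.77 in caput/corpus, a log2 fold change of 4.80 ± 0.73 (adjusted p = 0.0067). Every IS library was more than 10-fold above every caput/corpus library. Defb25 stood at 43.9, 48.0, 69.9 and 39.4 CPM in IS and at 5.78, 1.20 and 4.89 in caput/corpus, with no overlap (log2 3.66 ± 0.66, adjusted p = 0.0136). Without the 3 libraries whose sources conflict, all 3 were called again, at log2 2.90, 4.88 and 4.11 (adjusted p = 0.0025, 0.0148 and 0.0095). Defb25 was not called without IS replicate 3 (adjusted p = 0.0686) or without caput/corpus replicate 3 (0.0547). Within the libraries of 1 title name, log2 fold changes were 1.52 and 2.93 for Defb20, 4.68 and 4.80 for Defb48 and 2.96 and 4.15 for Defb25 in Maj3 and Maj4. Maj3 has 1 caput/corpus library, whose spread is taken from the other groups, and none of the 3 was called there (adjusted p = 1.0).

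The 7 members higher in caput/corpus were Defb15, Defb22, Defb23, Defb28, Defb38, Defb39 and Defb43. Defb22, a heavily glycosylated member that coats sperm, had 0 reads in all 4 IS libraries and 418, 56 and 141 reads in caput/corpus, at least 287-fold higher (adjusted p = 0.0385). Defb23 had 0, 1, 0 and 0 reads in IS and 142, 109 and 50 in caput/corpus, a ratio of 421 (interval from 75.1, adjusted p = 0.0138). Defb15 had 1, 1, 0 and 1 reads in IS and 72, 73 and 52 in caput/corpus, a ratio of 91.9 (31.0 to 449.6, adjusted p = 0.0203). These 3 were close to absent from IS and present in every caput/corpus library. The paralogs Defb38 and Defb39 each had 1 read in IS, against 84 and 135 in caput/corpus (ratios 118 and 189, intervals from 20.5 and 33.4, adjusted p = 0.0448 and 0.0400). Defb28 stood at 0.0355, 0.189, 0.216 and 0 CPM in IS and at 7.61, 5.34 and 5.90 in caput/corpus (log2 -5.80 ± 1.00, adjusted p = 0.0118). Defb43 stood at 0.142, 0.152, 0.0540 and 0.215 CPM in IS and at 2.82, 0.914 and 1.65 in caput/corpus (log2 -3.64 ± 0.77, adjusted p = 0.0290). None of the 7 had overlapping groups.

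These 7 calls depended on single libraries. Without caput/corpus replicate 1, 0 of the 7 were called, and without any other one of the IS and caput/corpus libraries 1 or 2 were. Without cauda replicate 2 or 4 it was 4 of the 7, and without cauda replicate 1 all 7. Without the 3 conflicting libraries only Defb28 was (log2 -6.02, adjusted p = 0.0157), while adjusted p for Defb23 was 0.0515 and for the other 5 between 0.0694 and 0.133. Defb28 had adjusted p = 0.0549 without caput/corpus replicate 1. Within Maj3 and Maj4 its log2 fold changes were -6.06 and -5.72, and those of Defb43 -4.25 and -3.18, none called. Defb42 and Defb30 were among the members whose groups did not overlap and that were not called. The others were Defb2, Defb11, Defb12, Defb29, Defb37 and Defb40, all higher in caput/corpus. Defb42 stood at 41.4, 54.5, 56.0 and 30.9 CPM in IS and at 16.7, 17.9 and 14.7 in caput/corpus (log2 1.44 ± 0.48, adjusted p = 0.149). Defb30 had 106, 144, 38 and 24 reads in IS against 298, 458 and 125 in caput/corpus (log2 -2.52 ± 0.73, adjusted p = 0.0979).

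Between IS and cauda, 16 of the 24 tested members were called, with 13 that were higher in IS and 3 in cauda. Over all genes tested 16.5% were called (7.4% for IS, 9.06% for cauda). Groups did not overlap for 15 members, against 18.5% of all genes. The median log2 fold change (IS minus cauda) was 5.84 over the tested members and 0.05 over all genes. Over the 22 members with a fold, with 7 of them at their bound, it was 5.36.

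The members most abundant in IS were close to absent from cauda. Defb20 had 5897, 8246, 4145 and 3424 reads in IS and 5, 5, 1 and 1 in cauda, a log2 fold change of 10.98 ± 0.46 (adjusted p = 1.28e-06). Defb48 had 2559, 2514, 2383 and 1872 reads in IS and 3, 0, 7 and 2 in cauda (log2 9.54 ± 0.86, adjusted p = 0.000124). Defb25 had 1236, 1268, 1294 and 915 reads in IS and 0, 4, 0 and 3 in cauda (log2 9.39 ± 0.82, adjusted p = 0.000101). Each of the 4 IS libraries held 915 reads or more of each of these genes and no cauda library held more than 7. Defb42 had 1166, 1439, 1038 and 717 reads in IS and 0, 5, 2 and 0 in cauda (log2 9.23 ± 0.66, adjusted p = 3.93e-05). Defb47 had 158, 411, 446 and 310 reads in IS and 0 in all 4 cauda libraries, at least 449-fold higher (adjusted p = 0.00109).

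Members at a lower level followed the same direction. Defb1, a member that many epithelia make without induction, stood at 2.13, 20.3, 4.64 and 4.74 CPM in IS and at 0, 0.206, 0.288 and 0.0437 in cauda (log2 5.87 ± 1.18, adjusted p = 0.0075). IS replicate 2, which also had the highest structural epithelial sum, was far above the other 3. Defb18 stood at 1.42, 1.52, 3.08 and 1.85 CPM in IS and had reads in cauda replicate 2 alone, at 0.137 CPM (log2 5.81 ± 1.21, adjusted p = 0.0088). Defb30 had 312 reads in IS and 1 in cauda (ratio 317, interval from 56.5, adjusted p = 0.000536), and Defb21 145 and 1 (ratio 147, interval from 26.0, adjusted p = 0.0028). Defb12, Defb29, Defb41 and Defb45 had 117, 79, 133 and 125 reads in IS, 15 or more in every library, and 0 in cauda, at least 39.6-, 26.8-, 45.1- and 42.3-fold higher (adjusted p = 0.0024, 0.0036, 0.0032 and 0.0027). Within Maj3 and Maj4, log2 fold changes were 10.57 and 11.70 for Defb20, 10.73 and 8.81 for Defb48, 9.33 and 9.42 for Defb25 and 9.09 and 9.59 for Defb42. In Maj3 alone 1 of the 13 was called, Defb20 (adjusted p = 0.0132). All 13 of these members were called again whichever of the 11 libraries was left out, and all 13 without the 3 conflicting libraries.

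Higher in cauda than in IS were Defb28, Defb43 and Defb40. Defb28 stood at 1.02, 3.56, 4.56 and 1.97 CPM in cauda replicates 1 to 4 and at 0 to 0.216 in IS (log2 -4.62 ± 0.94, IS minus cauda, adjusted p = 0.0081). Defb43 stood at 1.90, 0.993, 0.462 and 0.743 CPM in cauda and at 0.0540 to 0.215 in IS (log2 -2.69 ± 0.73, adjusted p = 0.0310). Neither had overlapping groups. Defb40 had 59, 11, 16 and 2 reads in cauda and 3, 0, 0 and 0 in IS, a ratio of 28.9 (9.56 to 142.7, adjusted p = 0.0292), and its groups overlapped. Cauda replicate 1 gave the highest value of Defb43 and Defb40 and the lowest of Defb28. Without the 3 conflicting libraries Defb28 was called (log2 -5.38, adjusted p = 0.0076), Defb43 was not (adjusted p = 0.155), and Defb40 did not pass the filter. Defb43 also lost its call when 1 of 6 libraries was left out: IS 1, IS 2, IS 3, caput/corpus 1, caput/corpus 3 or cauda 4 (adjusted p = 0.0515 to 0.0993). Defb40 lost its call without IS 2, IS 3, IS 4 or caput/corpus 1 (adjusted p = 0.0550 to 0.0789), and it did not pass the filter without cauda 1 or cauda 3. Within Maj3 and Maj4, the log2 fold change of Defb28 was -4.26 and -4.92 and that of Defb43 -3.21 and -2.09, none called.

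Between cauda and caput/corpus, 12 of the 24 tested members were called and all 12 were higher in caput/corpus. Over all genes tested 0.615% were called, 0.582% higher in caput/corpus and 0.0331% higher in cauda. With edgeR 0 members were called higher in cauda, 0 had an unadjusted p under 0.05 in that direction, and DESeq2 and limma called 0. Groups did not overlap for 20 members, against 9.57% of all genes. The median log2 fold change (cauda minus caput/corpus) was -6.02 over the tested members, -5.64 with 7 members at their bound, and -0.02 over all genes.

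The 12 called members were Defb12, Defb15, Defb20, Defb21, Defb23, Defb25, Defb29, Defb30, Defb42, Defb45, Defb47 and Defb48. Defb20 fell from 2441, 411 and 594 reads in caput/corpus to 5, 5, 1 and 1 in cauda (log2 -8.63 ± 0.46, adjusted p = 1.45e-05). Defb42 fell from 456, 371 and 304 reads to 0, 5, 2 and 0 (log2 -7.79 ± 0.65, adjusted p = 0.000379). Defb30 had 298, 458 and 125 reads in caput/corpus and 1 in cauda, a ratio of 1253 (interval from 224, adjusted p = 0.0014). Defb47 had 613, 92 and 107 reads in caput/corpus and 0 in cauda, at least 385-fold lower there (adjusted p = 0.0161). These 4 remained called without the 3 conflicting libraries, at adjusted p between 0.000147 and 0.0115. Within Maj3 and Maj4, log2 fold changes were -9.05 and -8.77 for Defb20 and -7.59 and -8.19 for Defb42. Defb20 was called in both, Defb42 and Defb47 in Maj4.

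The other 8 calls were lost without those libraries. Defb25 stood at 0, 0.137, 0 and 0.131 CPM in cauda (log2 -5.73 ± 0.78, adjusted p = 0.0098 with all libraries and 0.0783 without the 3). Defb48 stood at 0.105, 0, 0.404 and 0.0875 CPM in cauda (log2 -4.74 ± 0.84, adjusted p = 0.0386 and 0.193). Both were above these levels in every caput/corpus library. Defb12, Defb15, Defb23, Defb29 and Defb45 had 208, 197, 301, 99 and 117 reads in caput/corpus and 0 in cauda, at least 98.6-, 93.4-, 143-, 47.0- and 55.5-fold lower in cauda (adjusted p = 0.0161, 0.0301, 0.0304, 0.0280 and 0.0265). Defb21 had 165 reads in caput/corpus and 1 in cauda, a ratio of 235 (interval from 41.6, adjusted p = 0.0169). In a fit of the cauda and caput/corpus libraries alone, 1 of the 12 was called, where 8 of all 14059 genes tested were called. Of the 12, 5 were called without caput/corpus replicate 1, 6 without IS replicate 4, cauda replicate 2 or cauda replicate 4, 7 without IS 1, IS 2, caput/corpus 2 or caput/corpus 3, and all 12 without cauda replicate 1.

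Defb28, Defb43 and Defb40, which had been higher in cauda than in IS, did not pass the test against caput/corpus. Defb28 stood at 7.61, 5.34 and 5.90 CPM in caput/corpus, above all 4 cauda libraries (log2 -1.18 ± 0.83, adjusted p = 0.650). Defb43 (log2 -0.96 ± 0.72, adjusted p = 0.676) and Defb40 (log2 0.44 ± 1.18, adjusted p = 0.936) overlapped between the regions. Defb22 had 1, 2, 13 and 0 reads in cauda against 418, 56 and 141 in caput/corpus, and was not called (log2 -5.48 ± 1.60, adjusted p = 0.241). Defb1 (adjusted p = 0.0560), Defb18 (0.0740) and Defb41 (0.0558) lay near the threshold, each lower in every cauda library than in any caput/corpus library.

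Defb2, Defb11 and Defb37 were not called in any comparison. Defb2, a member that is induced by bacterial products in other epithelia, had 0, 20, 0 and 1 reads in IS and 49, 19 and 25 in caput/corpus, while cauda had 0, 36, 19 and 16. Defb11 had none in IS, while caput/corpus had 51, 7 and 4 reads and cauda 0, 30, 2 and 12. For Defb37 the IS libraries had 8, 8, 3 and 2 reads, caput/corpus 106, 27 and 46, and cauda 0, 0, 6 and 5. In all 3, the caput/corpus libraries had the highest mean and cauda replicate 1 had 0 reads. That library held reads of 6 members alone: 59 of Defb40, 54 of Defb43, 29 of Defb28, 5 of Defb20, 3 of Defb48 and 1 of Defb22.

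The members lie in 5 groups of neighbouring genes in RefSeq's order for GRCm38: 3 on chromosome 1, 11 on chromosome 2, 5 on chromosome 14, and on chromosome 8 a group of 14 next to Spag11a and a group of 9 that starts with Defb1. All members of chromosomes 1, 2 and 14 had reads, as did 8 of 14 and 8 of 9 on chromosome 8. Neighbours differed in their region. On chromosome 14 the order is Defb48, Defb47, Defb43, Defb30 and Defb42, where Defb43 was lowest in IS (0.141 ± 0.0664 CPM, n = 4) while Defb47 beside it stood at 14.7 ± 7.60 CPM in IS. On chromosome 2 Defb20 lies between Defb23 and Defb22, which had 1 and 0 reads in IS. The chromosome 2 and chromosome 14 groups together held most of the family's level in IS (190 to 367 and 126 to 211 CPM). The chromosome 8 group next to Spag11a summed to 0.905 to 2.12 CPM in IS, 6.92 to 12.7 in caput/corpus and 0.480 to 2.07 in cauda.

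**Figure D5:**
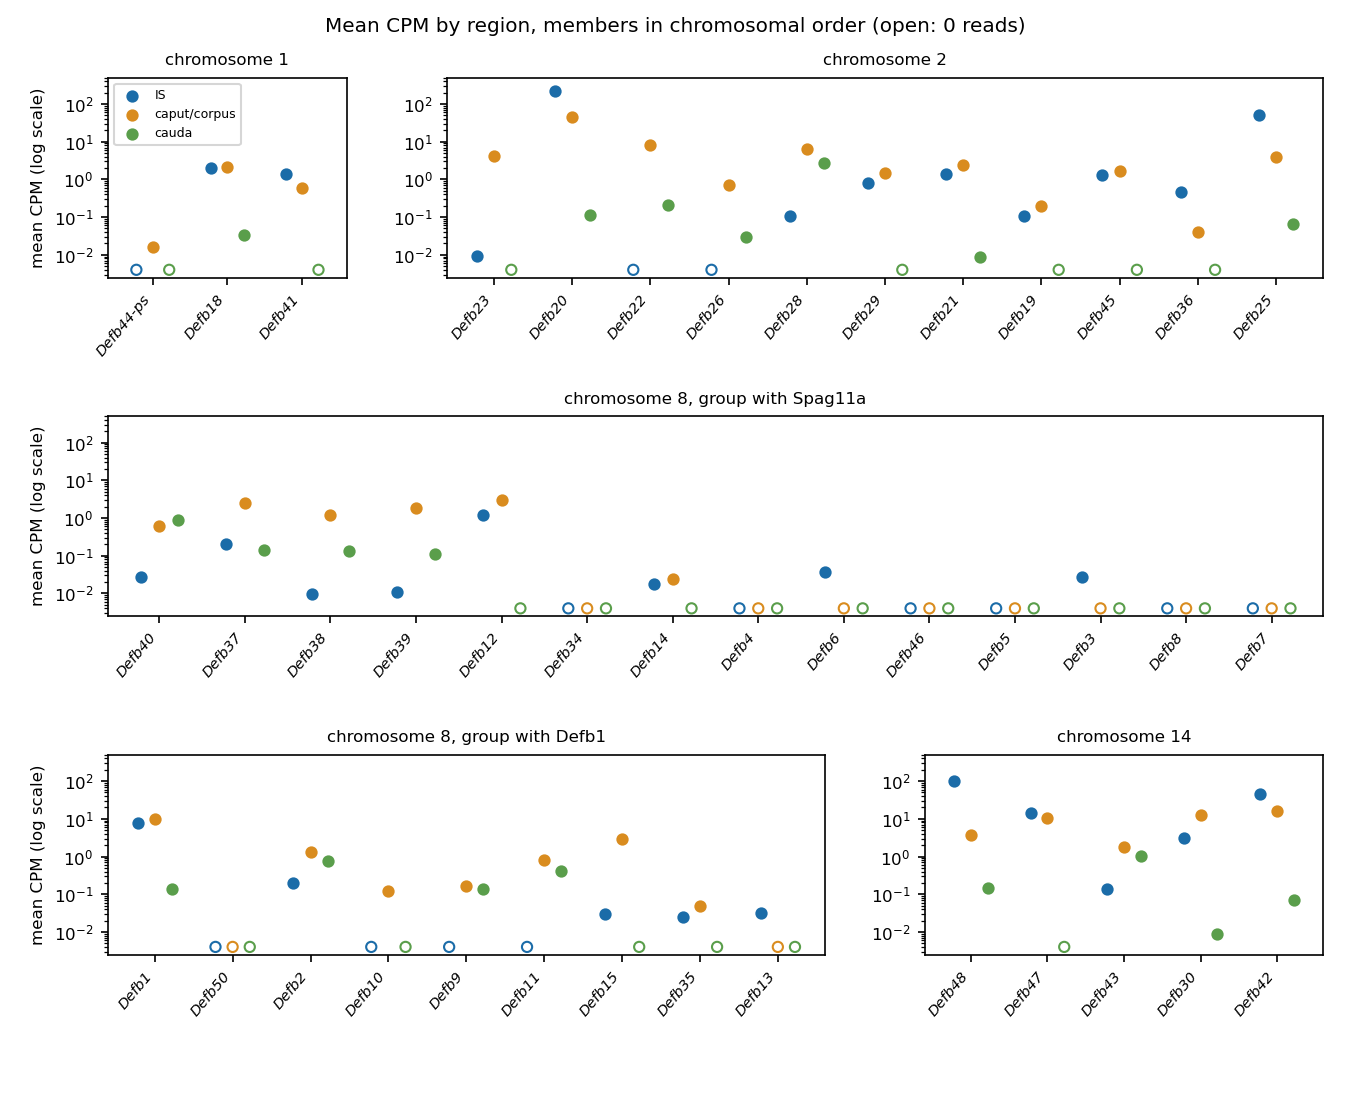
Mean CPM (log axis) of each member by region, with members in their order along the chromosome, in 5 groups of neighbouring genes. Filled points are means over 4 IS, 3 caput/corpus and 4 cauda libraries and open points mark 0 reads in the region. Neighbours such as Defb20 and Defb22 or Defb47 and Defb43 differ in the region where they are high.

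Spag11b, a gene of the same chromosome 8 region whose products resemble beta-defensins, stood at 187, 196, 239 and 175 CPM in IS. Its level was 73.2, 30.4 and 39.9 CPM in caput/corpus, and the cauda libraries had 2.42, 0.0343, 0.0577 and 0.0437. It was higher in IS than in cauda (log2 8.39 ± 0.89, adjusted p = 0.000247) and lower in cauda than in caput/corpus (log2 -6.31 ± 0.85, adjusted p = 0.0093). The cauda value of replicate 1 rests on 69 reads against 1 in each of the other 3. Of Spag11a the IS libraries had 0, 15, 3 and 0 reads, caput/corpus 102, 79 and 68, and cauda 0, 0, 2 and 0. Its libraries were thus highest in caput/corpus.

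Of a list of other antimicrobial proteins, 14 genes were tested. Between IS and cauda 6 were higher in IS, among them Lcn2, an iron-siderophore binder (277 ± 163 against 0.698 ± 0.583 CPM, log2 8.79 ± 0.72, adjusted p = 8.4e-05), and Bpi, a binder of endotoxin. In the same comparison 3 were higher in cauda, among them Lyz1, a lysozyme (35.9 ± 22.1 against 542 ± 245 CPM, log2 -4.11 ± 0.40, adjusted p = 0.000166). Between IS and caput/corpus, Bpi was higher in IS and Lyz1 in caput/corpus, and 2 genes, Lcn2 and Spag11b, were lower in cauda than in caput/corpus. Over all genes tested 0.794%, 2.98% and 0.582% were called in these directions. For IS against cauda the shares were 7.4% higher in IS and 9.06% higher in cauda. Lcn2 is also on the list of secreted epithelial products. None of the alpha-defensin genes of the list had a read, though these have many near-identical copies.

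Of 20 receptors and partners described for beta-defensins, several of them carried by phagocytes, 13 were tested. Ccr2, a chemokine receptor that beta-defensins have been reported to engage, had a mean of 692 ± 290 CPM (SD, n = 4) in IS, and of 1760 ± 329 (n = 3) for caput/corpus and 2447 ± 560 (n = 4) for cauda. It was higher in caput/corpus than in IS (log2 -1.29 ± 0.29, IS minus caput/corpus, adjusted p = 0.0376) and higher in cauda than in IS (log2 -1.82 ± 0.28, adjusted p = 0.0016). Cd209a, Flt3 and Mrgprb2 were also higher in both regions than in IS, and P2rx7, an ATP-gated channel, was lower in both (adjusted p = 0.0313 and 0.0029). In both comparisons 4 of the 13 were thus called lower in IS and 1 higher. The shares of all genes tested were 2.98% and 0.794% against caput/corpus, and 9.06% and 7.4% against cauda. Mrgprb2 is a mast cell receptor, and the mast cell list moved with it. That list summed to 48.0 to 132 CPM in IS, 865 to 1222 in caput/corpus and 1259 to 4638 in cauda. Of its 12 genes, 11 were called higher in caput/corpus than in IS, against 2.98% of all genes tested. The part of mast cells in the values of Mrgprb2 was not tested. Between cauda and caput/corpus 0 of the 13 were called, 0 had an unadjusted p under 0.05, and DESeq2 and limma called 0. Ccr6, the receptor most often named for beta-defensins, had 36 reads or fewer in every library.

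Of 28 inducers and regulators of epididymal beta-defensins, 23 were tested. Between IS and cauda 4 were higher in IS, namely Runx1, Ros1, Etv5 and Etv4, and 3 were higher in cauda, namely Nfkb1, Nfkbia and Myd88. The shares of all genes tested were 7.4% higher in IS and 9.06% higher in cauda. Ros1, a receptor kinase that the epithelium of the initial segment needs to mature, stood at 2.35 ± 0.86 CPM in IS and had 0 reads in cauda (adjusted p = 0.0040). Nfkbia, an inhibitor of NF-kappaB, stood at 315 ± 97.5 CPM in IS and 706 ± 410 in cauda (log2 -1.09 ± 0.24, adjusted p = 0.0115). In each of the other 2 comparisons edgeR called 0, with 6 and 4 genes at an unadjusted p under 0.05, where DESeq2 called 3 and 1 and limma 2 and 0.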

How the data were processed

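RNA was extracted with a PicoRNA kit, amplified with SMARTer v4 and sequenced on a HiSeq2500, per the labels' protocols. The authors deposited counts of reads per gene and an RPKM table of all 11 samples, and STAR, HTSeq, edgeR and mm9 are named in the submitters' processing notes. Whole reads were recovered from the deposited RPKM (tolerance 0.001) and equalled the sample's count file in 8 of 11 libraries. Members and gene lists were chosen with earlier results of these data known. CPM used TMM scaling. Regions were compared with edgeR's quasi-likelihood test (4.0.16, R 4.3.3) over all genes that passed filterByExpr, with region and title name as terms and Benjamini-Hochberg adjustment, at a threshold of 0.05. SE is the log2 fold change divided by the root of F. The test was tried on simulated counts. Alternatives were DESeq2 (1.42.0), limma (3.58.1) on log2(RPKM + 1), robust spread, library size in place of TMM, no filter, a replicate block, no title term, libraries of 1 title name, the compared regions alone, each library left out, the count files as filed (for the summed level chosen after seeing the data) and the 8 libraries with equal sources. All members are named. From each other list at most 4 genes called per comparison, by p, were to be named, with Spag11a and Spag11b, and further genes were chosen after their values were seen. Of 218 entries on 10 lists, 216 were matched. Promoters came from RefSeq, GRCm38.p6, not the build of the deposited files.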

Additional observations from a re-analysis of the deposited data

Results flagged for a closer look

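In 34 groups of 4 libraries that were tested, 5 members had 1 library far from the other 3 by Dixon's criterion. Chance meets it in about 1 in 20 groups of normally distributed values, a rate that need not hold for low counts with zeros. A group with reads in 1 library alone always meets it. Defb1 stood at 20.3 CPM in IS replicate 2 against 2.13 to 4.74 in the other IS libraries, and Defb2 at 0.758 CPM in the same library against 0 to 0.0431 in the others. In cauda, Defb18 had reads in replicate 2 alone, at 0.137 CPM. In cauda replicate 3, Defb22 stood at 0.750 CPM and Defb39 at 0.404 CPM, above the other 3 cauda libraries.

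The count file under IS replicate 2 equals no column of the expression table and enters the comparisons only where count files are taken as filed. It held 5304 reads of 29 members among 30383072 reads, a summed level of 202 CPM, with 1456 reads of Defb20, 905 of Defb22, 397 of Defb47 and 396 of Defb28. Differences of a region's effect between the title names (Maj4 minus Maj3) were fitted with edgeR for the 24 members in each comparison. Since Maj3 has 1 caput/corpus library, this fit cannot show that the effects are equal. The largest were those of Defb37, at log2 -6.99 for IS minus cauda and 6.91 for cauda minus caput/corpus. Both rest on few cauda reads of Defb37, with 0 and 0 in Maj3 against 6 and 5 in Maj4. For IS minus caput/corpus the largest was that of Defb39, at 3.17, a member with 1 read in IS. That of Defb20 was 1.39.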

How the results depend on the processing

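No called value changed its sign under any of the 23 alternatives per comparison. Of the values of called members over these alternatives, 615 kept their call and 252 lost it. The count higher in IS than in caput/corpus (3) was 0 in Maj3 alone and 0 with count files as filed, and 2 to 4 with each library left out. The count higher in caput/corpus (7) was 4 without the title term, 0 in Maj4, 0 in Maj3, 0 as filed, 3 with equal sources (1 of them among the 7) and 0 to 9 with each library left out. The count higher in IS than in cauda (13) was 1 in Maj3, 0 as filed and 13 to 14 with each library left out. The count higher in cauda (3) was 5 with DESeq2, 0 in Maj4, 0 in Maj3, 1 with the compared regions alone, 0 as filed and 1 to 3 with each library left out. The count higher in caput/corpus than in cauda (12) was 3 in Maj4, 1 in Maj3, 1 with the compared regions alone, 0 as filed, 4 with equal sources and 5 to 15 with each library left out. The causes were not tested. Maj3 alone has fewer libraries. With at least 5 reads in a library, 19 members counted as present in IS in place of 29, and as filed 31 in cauda in place of 19. As filed, the mean summed level was 261 CPM in caput/corpus and 59.3 in cauda. Over all genes, the 3 comparisons called 571, 2488 and 93 genes, and 1268, 3595 and 632 with DESeq2.

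Libraries that carry the same number in their source names within a title name (not the replicate numbers used here) had correlations of deviations from the region means of -0.015 to 0.393. The highest, 0.281 to 0.393, were in Maj3. Libraries with different numbers had 0.018 to 0.178, so the ranges overlapped. Whether the numbers mark pairs cannot be told from these values, and they were not taken as pairs in the main fit. With a replicate block, 2 members (Defb28 and Defb43) were called higher in caput/corpus than in IS in place of 7, and 4 (Defb20, Defb25, Defb30 and Defb42) higher in caput/corpus than in cauda in place of 12. Reads limit the rarer members: 3 reads came to 0.103 to 0.173 CPM.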
